A study of Mus musculus with 10 samples.

Results

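The genes described here make, remove or sense retinoic acid. They are the 9 genes Rbp4, Rdh10, Aldh1a1, Aldh1a2, Aldh1a3, Cyp26b1, Rara, Rarb and Rarg, taken by their exact symbol in the authors' annotation table and read on the transcript cluster (the set of array probes for 1 gene) that carried each symbol. Each of the 9 lay on 1 cluster, and they are 9 of 20174 genes measured. RNA from mouse cells was hybridised to 10 arrays in 5 groups of 2. The 0 week group was CD9-sorted testis cells of adult DBA/2 mice, taken before culture. The 1, 2 and 3 week groups were such cells after that time in an Iscove-based medium with FGF2, GDNF and fetal bovine serum, with no feeder cells named in the labels. The 5th group was GS (germline stem) cells of DBA/2 mice, long-term cultures of spermatogonial stem cells grown in the same medium, whose passage number the labels do not give. No label says that the 2 arrays of a group came from separate animals or cultures, and the p-values then reflect only how far such pairs of arrays differed, possibly for technical reasons.

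Retinoic acid is made from vitamin A in a pair of oxidations. Retinol, carried in blood by the protein of Rbp4, is first oxidised to retinal by retinol dehydrogenases such as RDH10, and retinal is then oxidised to retinoic acid by ALDH1A1, ALDH1A2 or ALDH1A3. CYP26 enzymes break retinoic acid down, and the receptors RARA, RARB and RARG, paired with RXR proteins, bind it and switch target genes. In the testis retinoic acid drives undifferentiated spermatogonia into differentiation and germ cells into meiosis.

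Receptor pairs bind DNA at 2 copies of a short half-site, and in the arrangement called DR5 the copies point the same way with 5 bases between them. RefSeq promoter windows of 300 bases (250 before and 50 after a transcript start, build GRCm38.p6) were searched on both strands for any pair of the half-site AGGTCA or its variants, AGTTCA among them and also GGGTCA besides GGTTCA, spaced by 1, 2 or 5 bases. Windows were at hand for 7 of the 9 genes and for 21 of 24 other genes of the pathway named below. A DR5 match lay in 32 of 32851 windows (0.0974%), and among the genes described here these were Rarb and Cyp26a1, the latter a retinoic acid hydroxylase that is not one of the 9. A pair spaced by 1 base lay in 73 windows (0.222%), Bco1 of the same pathway among them, and one spaced by 2 bases in 88 windows (0.268%), none of them of these genes. Such a match is a run of letters and not evidence of binding. Both windows are printed 5′ to 3′ along the gene with the DR5 match in capitals, since Rarb and Cyp26a1 are textbook readouts of retinoic acid and their signals are given below. The Rarb window is chr14:16575427-16575726 on the minus strand, with the match from 53 to 37 bases before the start. The Cyp26a1 window is chr19:37697558-37697857 on the plus strand, with the match on the opposite strand.
Rarb: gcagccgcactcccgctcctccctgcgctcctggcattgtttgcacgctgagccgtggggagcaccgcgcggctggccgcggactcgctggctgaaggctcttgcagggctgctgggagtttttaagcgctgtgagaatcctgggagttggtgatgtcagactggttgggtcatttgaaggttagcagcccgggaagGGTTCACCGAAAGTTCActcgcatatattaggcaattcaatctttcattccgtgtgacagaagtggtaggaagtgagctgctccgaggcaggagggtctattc
Cyp26a1: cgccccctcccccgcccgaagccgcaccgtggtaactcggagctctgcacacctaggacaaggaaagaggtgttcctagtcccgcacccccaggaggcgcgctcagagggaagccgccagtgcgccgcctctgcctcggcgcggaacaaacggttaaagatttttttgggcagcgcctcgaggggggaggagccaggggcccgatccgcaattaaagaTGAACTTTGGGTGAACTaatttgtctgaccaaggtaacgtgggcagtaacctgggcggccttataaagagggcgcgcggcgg

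Values below are linear array signals as the authors deposited them, without a stated background level. The lower quartile of all clusters was 59.5 to 73.7 and the median 112 to 125.3 on the 10 arrays, so a signal near 60 to 70 is not shown to be above background, and a fall to it may be understated. Changes are differences of mean log2 signal ± SE (n = 2 arrays per group) from 1 limma model over all 5 groups, with Benjamini-Hochberg adjustment over all 20174 genes, and an adjusted p under 0.05 passed. Replicate arrays had r = 0.991 to 0.998 across genes, against at most 0.984 between groups.

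The groups differed in their signals for marker genes of cell types. The 0 week arrays, labelled as spermatogonial stem cells, gave signals of 13034 and 12946 for the sperm protamine Prm1 and 4973 and 5011 for the Leydig cell steroid enzyme Cyp17a1, and 381 and 387 for Zbtb16, a marker of undifferentiated spermatogonia. At 2 weeks Zbtb16 was at 1567 and 1584 and Cyp17a1 at 78.0 and 74.9. The summed signal of 18 fibroblast and mesenchyme genes was 8719 to 9895 at 0 weeks, 66771 to 67814 at 1 week, 10676 to 10772 at 2 weeks, 5590.5 to 7076 at 3 weeks and 21569.5 to 24194 in GS cells. In these bulk samples fewer cells of a type and less RNA per cell cannot be told apart, and this holds for every change given below.

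All 9 genes differed somewhere among the 5 groups (limma F test), against 74.7% of all genes. Aldh1a1 and Cyp26b1 were high in sorted cells and lower from 1 week on, while Aldh1a2 was high at 0 and 1 week and lower from 2 weeks on. The 1 week arrays of Aldh1a3, Rdh10 and Rara lay above all others, the 1 week level of Rarg did not pass as different from 3 weeks, and Rbp4 and Rarb spanned the narrowest ranges. The plot of signals by array shows these courses.

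**Figure D1:**
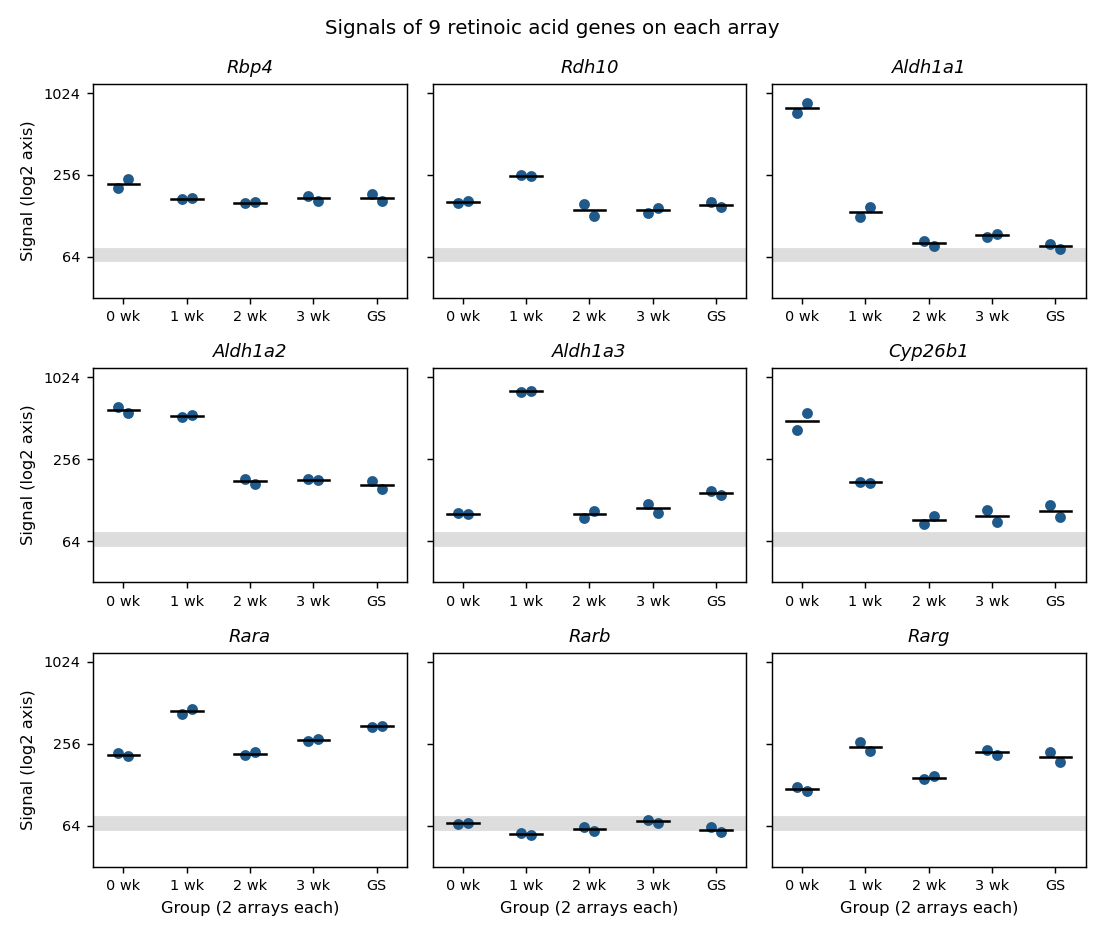
Signals of the 9 genes on each of the 10 arrays (log2 axis), by group, with dots for arrays, a bar for the geometric mean of each pair and a grey band from 59.5 to 73.7 for the lower quartile of all clusters. Aldh1a3 stands at 803 and 813 at 1 week and at or under 149.7 on every other array, while Rarb stays between 55.0 and 70.5.

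The genes of the vitamin A carrier and of the first oxidation spanned at most 1.38-fold (Rbp4) and 1.80-fold (Rdh10) between any groups. Rbp4 (transcript cluster 10467319) encodes the plasma carrier of retinol. It read 204 and 239.6 on the 0 week arrays, 170.3 and 172 at 1 week, 159 and 161 at 2 weeks, 179 and 166 at 3 weeks and 185 and 165 in GS cells. The sorted cells were highest, and the arrays of the 4 cultured groups lay in one narrow range. Rbp4 fell at 1 week (-0.37 ± 0.09, adjusted p = 0.0063) and stayed lower in GS cells than in sorted cells (-0.34 ± 0.09, adjusted p = 0.011). Both calls ended without 0 week replicate 2 (-0.25, adjusted p = 0.0629, and -0.22, adjusted p = 0.105; over all alternatives 0.0019 to 0.0629 and 0.000781 to 0.105). The second also ended without GS replicate 2 (-0.26, adjusted p = 0.069) and was -0.53 with cyclic loess. The later steps did not pass, and among the cultured groups no neighbours in the order of levels (GS cells, 3 weeks, 1 week, 2 weeks) differed.

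Rdh10 (transcript cluster 10344952) encodes the retinol dehydrogenase that makes retinal in the mouse embryo. It read 160.3 and 165 on the 0 week arrays, 254 and 252 at 1 week, 157 and 129 at 2 weeks, 135 and 147 at 3 weeks and 161 and 148 in GS cells. Both 1 week arrays lay above all others, and the 0 week and GS arrays overlapped. Rdh10 rose at 1 week (0.64 ± 0.10, adjusted p = 0.00025), a 1.56-fold change, and fell at 2 weeks (-0.84 ± 0.10, adjusted p = 5.1e-05). In GS cells it measured 154 ± 9.37 against 163 ± 3.64 in sorted cells (mean ± SD, n = 2), a change of -0.08 ± 0.10 that did not pass (adjusted p = 0.57).

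The 3 retinal dehydrogenase genes, which encode the last step of synthesis, followed 3 different courses. Aldh1a1 had its large fall in the first week, Aldh1a2 in the second week, and Aldh1a3 rose and fell back between 0 and 2 weeks. In adult mouse testis ALDH1A1 is known from Sertoli and Leydig cells and ALDH1A2 from late meiotic germ cells.

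Aldh1a1 (transcript cluster 10461979) read 736 and 861 on the 0 week arrays, 125 and 149 at 1 week, 84.2 and 76.7 at 2 weeks, 89.7 and 94.1 at 3 weeks and 80.1 and 73.1 in GS cells. The sorted cells lay far above all cultures, the 1 week arrays came next, and 2 weeks and GS cells overlapped. Aldh1a1 fell 5.85-fold at 1 week (-2.55 ± 0.11, adjusted p = 1.6e-08) and again at 2 weeks (-0.76 ± 0.11, adjusted p = 0.00022). GS cells were 10.4-fold below sorted cells (-3.38 ± 0.11, adjusted p = 3.1e-09), with signals below the array median from 2 weeks on. The steps to 3 weeks (0.19 ± 0.11, adjusted p = 0.23) and to GS cells (-0.26 ± 0.11, adjusted p = 0.073) did not pass. The fall at 1 week came with falls of 7 of 9 Leydig cell genes (median -1.23) and of 7 of 14 Sertoli cell genes (4 rose, median -0.24). Of all genes 27.5% were called lower and 30.3% higher at that step. The summed signal of the Leydig genes was 7194 to 7200.3 at 0 weeks and 853 to 866 at 1 week. Most of that sum at 0 weeks was Cyp17a1 (4973 and 5011), which read 76.0 and 66.5 at 1 week. The other defining Leydig genes went from 964 and 964 to 155 and 184 (Cyp11a1) and from 247 and 235 to 183 and 201 (Star). Of the defining Sertoli genes Sox9 went from 221 and 206 to 419 and 437, and Wt1 from 254 and 299 to 166 and 152. Amh went from 63.9 and 66.0, below the lower quartile, to 78.9 and 72.9. The summed signal of the Sertoli genes was 4721 to 5099 at 0 weeks and 4327 to 4365 at 1 week. All 14 measured meiotic prophase genes (median -3.30) and all 16 spermatid genes (median -5.04) fell in the same week. So did 7 of 12 macrophage genes (3 rose, median -0.38), 5 of 9 endothelial genes (1 rose, median -0.26) and 4 of 9 myoid genes (2 rose, median -0.30). The part of any of these cell types in the fall was not tested.

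Aldh1a2 (transcript cluster 10586865) read 619 and 559.9 on the 0 week arrays, 524 and 539 at 1 week, 185 and 169 at 2 weeks, 185 and 179.5 at 3 weeks and 176 and 156 in GS cells. The 0 and 1 week arrays formed an upper range and the other 6 arrays a lower one, with no overlap between the ranges. The change at 1 week was -0.15 ± 0.09 and did not pass (adjusted p = 0.17), but a fall was called with quantile scaling (-0.34, adjusted p = 0.0059) and with cyclic loess (-0.36, adjusted p = 0.00377), and over all alternatives the adjusted p was 0.00377 to 0.612. Aldh1a2 then fell 3.01-fold at 2 weeks (-1.59 ± 0.09, adjusted p = 2.0e-07). The step to 3 weeks did not pass (0.04 ± 0.09, adjusted p = 0.73). The step to GS cells did not pass either (-0.14 ± 0.09, adjusted p = 0.22), though cyclic loess called a fall there (-0.40, adjusted p = 0.004, in a range of 0.004 to 0.73). GS cells stood 3.56-fold below sorted cells (-1.83 ± 0.09, adjusted p = 5.1e-08). Between 1 and 2 weeks 8 of 9 peritubular myoid and smooth muscle genes fell (median -1.99, summed signal 11358 to 11947 at 1 week and 1788 to 1837 at 2 weeks). All 18 fibroblast genes fell too (median -2.77), and of all genes 25.2% were called lower. In the first week 2 myoid genes had risen and 4 had fallen, and all 18 fibroblast genes had risen (median 3.33). Of the defining myoid genes Acta2 read 4009 and 4604 at 0 weeks, 5516 and 5840 at 1 week and 664 and 694 at 2 weeks. In the same order Myh11 read 379 and 506, 127 and 126, and 98.2 and 99.5. Meiotic prophase genes had fallen in the first week. Their summed signal was 19495 to 19884 at 0 weeks and 1486 to 1504 at 1 week. At 2 weeks 10 of 14 rose and 4 did not pass, against 25.6% of all genes called higher. The measured defining meiotic genes took different courses. Sycp1 went from 715 and 769 at 0 weeks to 120 and 149 at 1 week and 962 and 866 at 2 weeks. Pgk2 went from 1580 and 1535 to 58.8 and 58.4 and then 56.5 and 56.4, below the lower quartile at both culture times. Whether any of these cells carried the Aldh1a2 signal was not tested.

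Aldh1a3 (transcript cluster 10564417) read 103 and 101 on the 0 week arrays, 803 and 813 at 1 week, 95.5 and 107 at 2 weeks, 120.4 and 104 at 3 weeks and 149.7 and 141 in GS cells. The 1 week arrays lay alone at the top, and the 0 and 2 week arrays overlapped. Aldh1a3 rose 7.91-fold at 1 week (2.98 ± 0.09, adjusted p = 1.1e-09) and fell 8.0-fold at 2 weeks (-3.00 ± 0.09, adjusted p = 5.4e-09). The step to 3 weeks did not pass (0.15 ± 0.09, adjusted p = 0.24). In GS cells Aldh1a3 rose above 3 weeks (0.37 ± 0.09, adjusted p = 0.0064) and stood 1.42-fold above sorted cells (0.51 ± 0.09, adjusted p = 0.00068). It was still below 1 week there (2.48 ± 0.09, adjusted p = 4.1e-08). The fibroblast and mesenchyme list moved in the same directions in the first 2 steps and in the last, with 18 of 18 genes rising at 1 week (median 3.33), 18 falling at 2 weeks and 18 rising in GS cells (median 1.54). Of all genes 30.3% were called higher at 1 week, 25.2% lower at 2 weeks and 29.9% higher in GS cells against 3 weeks. At 3 weeks, a step at which Aldh1a3 did not pass, 13 of the 18 fell and 0 rose (median -0.47), against 16.5% of all genes called lower. The defining genes of that list were Prrx1, Col1a1 and Pdgfra. Prrx1 went from 130.1 and 143 to 2889.6 and 2995, 159 and 153, 99.0 and 132 and, in GS cells, 690.4 and 658. In the same order Col1a1 read 521 and 525, 5099 and 4937, 831 and 804, 605 and 726, and 1753 and 1681. Pdgfra read 450 and 496, 1116 and 1059, 182 and 187, 140 and 135, and 216 and 248, so its GS arrays lay below sorted cells. Against sorted cells 16 of the 18 genes were higher in GS cells and 2 were lower, where 30.8% of all genes were higher and 20.4% lower. The part of fibroblast-like cells in the Aldh1a3 signal was not tested.

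The breakdown enzyme gene fell beside Aldh1a1. Cyp26b1 (transcript cluster 10545771) encodes the cytochrome P450 that clears retinoic acid from the fetal mouse testis and is known from its somatic cells. It read 421 and 565 on the 0 week arrays, 175 and 173 at 1 week, 85.2 and 98.4 at 2 weeks, 108 and 89.4 at 3 weeks and 118 and 97.0 in GS cells. Sorted cells were highest, with a wide spread between their 2 arrays, the 1 week arrays lay below them, and the last 3 groups overlapped. Cyp26b1 fell 2.81-fold at 1 week (-1.49 ± 0.15, adjusted p = 1.4e-05) and 1.90-fold at 2 weeks (-0.92 ± 0.15, adjusted p = 0.00062). GS cells were 4.55-fold below sorted cells (-2.19 ± 0.15, adjusted p = 9.9e-07), and from 2 weeks on every array was below its median signal. The steps at 3 weeks (0.11 ± 0.15) and to GS cells (0.12 ± 0.15) did not pass (adjusted p = 0.64 and 0.55). Leydig, meiotic and spermatid genes fell in the same first week as given above, and myoid and fibroblast genes in the second. Other moves went against those of Cyp26b1. In the first week all 18 fibroblast genes rose, and the summed myoid signal was 9290 to 10718 at 0 weeks and 11358 to 11947 at 1 week. In the second week 10 of 14 meiotic genes rose. The part of these cells was not tested.

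**Figure D2:**
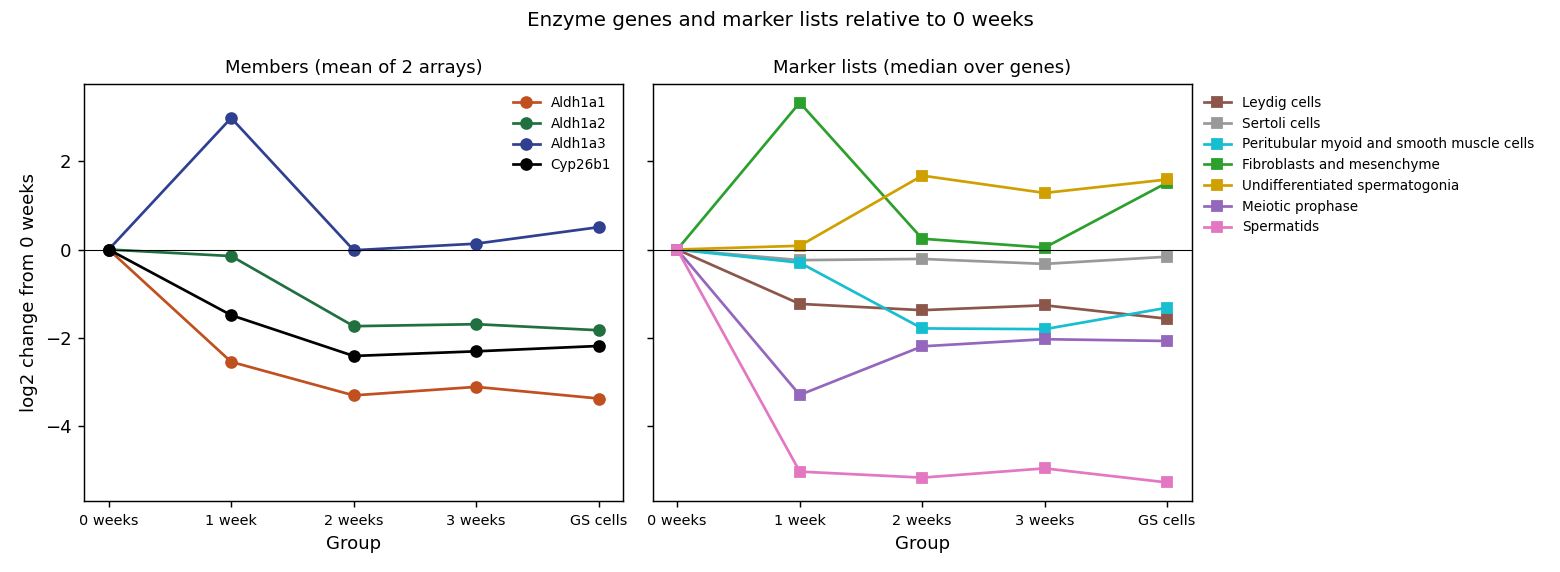
Mean log2 change from 0 weeks of Aldh1a1, Aldh1a2, Aldh1a3 and Cyp26b1 (left, means of 2 arrays) and the median log2 change of the genes of 7 marker lists (right), by group. Aldh1a1 and Cyp26b1 drop at 1 week, as do the Leydig, meiotic and spermatid medians and, by less, the Sertoli and myoid medians. Aldh1a2 drops at 2 weeks, and Aldh1a3 and the fibroblast median both peak at 1 week. The macrophage and endothelial lists are not drawn.

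Among the receptors, Rara and Rarg changed by about the same size at 1 week and Rarb stayed dim. Rara (transcript cluster 10381082) encodes retinoic acid receptor alpha, which in the mouse testis acts in Sertoli cells and germ cells. It read 219 and 208 on the 0 week arrays, 424 and 464 at 1 week, 210.5 and 223 at 2 weeks, 271 and 276 at 3 weeks and 339 and 348 in GS cells. The 1 week arrays were highest, the GS arrays next and the 3 week arrays below those, while 0 and 2 weeks overlapped at the bottom. Rara rose at 1 week (1.06 ± 0.07, adjusted p = 5.2e-07), fell at 2 weeks (-1.04 ± 0.07, adjusted p = 1.1e-06), and rose at 3 weeks (0.34 ± 0.07, adjusted p = 0.0088) and in GS cells (0.33 ± 0.07, adjusted p = 0.0042). GS cells were 1.61-fold above sorted cells (0.69 ± 0.07, adjusted p = 1.8e-05; 0.34 with cyclic loess). The rise at 3 weeks did not pass without 2 week replicate 1 (0.30, adjusted p = 0.091, in a range of 0.00144 to 0.091) and was 0.51 with cyclic loess. The rise in GS cells over 3 weeks ended with quantile scaling (0.10, adjusted p = 0.22) and cyclic loess (0.06, adjusted p = 0.532, in a range of 0.00243 to 0.532).

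Rarg (transcript cluster 10432972) encodes receptor gamma, which in mice is known from spermatogonia about to differentiate. It read 124 and 116 on the 0 week arrays, 262 and 228 at 1 week, 141 and 149 at 2 weeks, 231 and 213 at 3 weeks and 222 and 189.7 in GS cells. The arrays of 1 week, 3 weeks and GS cells overlapped in an upper range, and those of 2 weeks and 0 weeks lay below it. Rarg rose at 1 week (1.03 ± 0.10, adjusted p = 8.5e-06), fell at 2 weeks (-0.76 ± 0.10, adjusted p = 0.00012) and rose at 3 weeks (0.62 ± 0.10, adjusted p = 0.0025). The change to GS cells was -0.11 ± 0.10 and did not pass (adjusted p = 0.38), though cyclic loess called a fall (-0.25, adjusted p = 0.026, in a range of 0.026 to 0.999). GS cells stayed above sorted cells (0.77 ± 0.10, adjusted p = 8.5e-05). The 2 week level was above 0 weeks by a margin at the threshold (0.27 ± 0.10, adjusted p = 0.0499, in a range of 0.0072 to 0.239 over the alternatives), and was 0.14 with cyclic loess.

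Rarb (transcript cluster 10417713) encodes receptor beta and is itself a known target of retinoic acid; its window with the DR5 match is printed above. It read 66.2 and 67.1 on the 0 week arrays, 56.8 and 55.0 at 1 week, 63.0 and 58.2 at 2 weeks, 70.5 and 67.3 at 3 weeks and 62.2 and 57.9 in GS cells. Every one of the 10 arrays lay below its own lower quartile, so Rarb is not shown to be above background in any group. It passed as lower at 1 week (-0.25 ± 0.07, adjusted p = 0.012) and in GS cells against 3 weeks (-0.20 ± 0.07, adjusted p = 0.045), and no neighbouring levels differed. The first was -0.16 with cyclic loess. Both calls were lost with quantile scaling (-0.09, adjusted p = 0.264, and -0.01, adjusted p = 0.891). The first was also lost without 0 week replicate 2 (-0.24, adjusted p = 0.0584) or 1 week replicate 2 (-0.23, adjusted p = 0.0664), and the second with cyclic loess (-0.04, adjusted p = 0.594) and on leaving out any 1 array but GS replicate 1. Over all alternatives the adjusted p ranged over 0.00556 to 0.264 and 0.0242 to 0.891. Cyp26a1, whose window carries the other DR5 match, read 50.2 and 49.8 on the 0 week arrays, 52.2 and 50 at 1 week, 52.1 and 50.7 at 2 weeks, 53.9 and 55.5 at 3 weeks and 64.3 and 63.1 in GS cells. Its GS arrays lay above all others, and it rose there over 3 weeks (0.22 ± 0.06, adjusted p = 0.017) and over 0 weeks (0.35 ± 0.06, adjusted p = 0.00085). It lay below the lower quartile on 9 of the 10 arrays, all 0 to 3 week arrays among them, so the level it rose from is not shown to be above background. Its steps within the first 3 weeks did not pass.

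**Figure D3:**
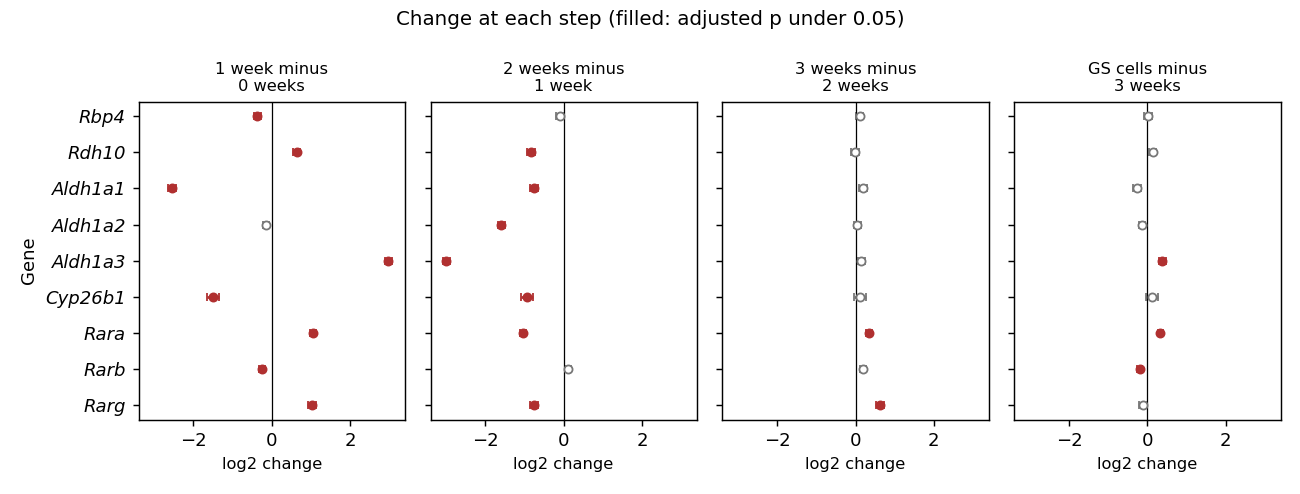
Log2 change of the 9 genes at each step (points, with bars for the SE, n = 2 arrays per group), filled where the adjusted p was under 0.05. Changes of both signs fill the first step, 7 genes fall in the second, and the last 2 steps hold changes of at most 0.62 in size.

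Counted over the 9 genes, the first week had 4 rises (Aldh1a3, Rara, Rarg, Rdh10) and 4 falls (Aldh1a1, Cyp26b1, Rbp4, Rarb), and Aldh1a2 did not pass. Of all genes 57.8% passed in that comparison, 30.3% higher and 27.5% lower, and the median change was -0.15 for the 9 and -0.04 for all genes. In the second week 7 fell, 0 rose, and Rarb and Rbp4 did not pass, against 25.2% of all genes called lower and 25.6% higher (50.9% in all), with medians of -0.84 and 0.06. The genes that fell include those that had risen 1 week before (Aldh1a3, Rara, Rarg, Rdh10), and both comparisons share the 1 week arrays.

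At 3 weeks Rara and Rarg rose and the other 7 did not pass, against 7.71% of all genes higher and 24.2% in either direction. Over all genes 31.9% of the calls at this step were rises, but 50.7% with cyclic loess and 11.2% with dim genes left out. In GS cells against 3 weeks Aldh1a3 and Rara rose, Rarb fell and 6 did not pass, with 29.9% of all genes higher and 17.2% lower (47.1% in all). Rises were 63.5% of those calls, and 88.2% with dim genes left out. Against sorted cells, GS cells were lower in 4 genes (Aldh1a1, Aldh1a2, Cyp26b1, Rbp4) and higher in 3 (Aldh1a3, Rara, Rarg), and Rarb and Rdh10 did not pass. Of all genes 20.4% were lower and 30.8% higher there (51.2% in all), so that 60.2% of calls were rises, and 46.6% with cyclic loess.

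The authors' deposited table sets 3 weeks against 0 weeks directly. It gives ratios of 0.115 for Aldh1a1, 0.202 for Cyp26b1 and 0.309 for Aldh1a2. In the same authors' deposited table the ratios are 1.85 for Rarg, 1.28 for Rara and 1.10 for Aldh1a3. The 1 week peak of Aldh1a3 lies between the times this ratio compares.

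Of 24 other genes of the pathway, 19 differed among the groups, where 74.7% of all genes did. In the first week 9 rose, 6 fell and 9 did not pass (median 0.05), against 57.8% of all genes called. In the second 2 rose, 10 fell and 12 did not pass (median -0.07), against 25.6% of all genes higher and 25.2% lower, and the rises were 1 without either 0 week array, 1 week replicate 2 or either 2 week array. At 3 weeks 1 rose, 4 fell and 19 did not pass (median 0.09), against 24.2% called. Without either 2 week array 0 rises and 1 fall were left there, without 3 week replicate 1 0 rises, and without 3 week replicate 2 2 rises and 2 falls, and without either GS array there were 2 rises. In GS cells 8 rose, 5 fell and 11 did not pass against 3 weeks (47.1% of all genes called), with 3 falls without 3 week replicate 1 or GS replicate 2. Against sorted cells 8 rose, 6 fell and 10 did not pass (51.2% called). Cyclic loess moved the falls to 2 at 3 weeks and to 10 in GS cells against sorted cells. Most of these shares lay near those of all genes, and nothing particular to the pathway is read from them.

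Crabp1 and Crabp2, the cellular retinoic acid binding proteins, peaked at 1 week. Crabp1, which binds retinoic acid in the cytoplasm, read 1043 and 1209 on the 0 week arrays, 7864 and 7193 at 1 week, 2357 and 2415 at 2 weeks, 2711 and 2631 at 3 weeks and 4284 and 3634 in GS cells. Every culture lay above the sorted cells, with 1 week at the top and GS cells next. It rose 6.70-fold at 1 week (2.74 ± 0.10, adjusted p = 5.0e-09), fell at 2 weeks (-1.66 ± 0.10, adjusted p = 4.4e-07) and rose in GS cells over 3 weeks (0.56 ± 0.10, adjusted p = 0.0013), where it was 3.51-fold above sorted cells. Crabp2, which hands retinoic acid to the receptors, read 126 and 117 on the 0 week arrays, 404 and 609 at 1 week, 156 and 148 at 2 weeks, 168 and 170.5 at 3 weeks and 204 and 228 in GS cells. Its 1 week arrays were again the highest, and far apart from each other. It rose 4.08-fold at 1 week (2.03 ± 0.16, adjusted p = 1.5e-06) and fell at 2 weeks (-1.71 ± 0.16, adjusted p = 9.0e-06), and was higher in GS cells than in sorted cells (0.83 ± 0.16, adjusted p = 0.0013).

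Dehydrogenases and reductases of the step between retinol and retinal moved apart. Dhrs9, a short-chain retinol dehydrogenase, read 64 and 54.8 on the 0 week arrays, 439.9 and 606 at 1 week, 57.8 and 64.9 at 2 weeks, 70.0 and 73.8 at 3 weeks and 91.1 and 108 in GS cells. Its 1 week arrays lay far above the rest and the GS arrays came next. It rose at 1 week (3.12 ± 0.15, adjusted p = 3.9e-08) and fell at 2 weeks (-3.08 ± 0.15, adjusted p = 1.0e-07). Both 0 week and both 2 week arrays of Dhrs9 lay below their lower quartile. The levels it rose from and fell to are thus not shown to be above background. Dhrs4, a retinal reductase, rose 2.25-fold at 1 week from 154 and 149 (1.17 ± 0.07, adjusted p = 1.7e-07). It fell 2.93-fold at 2 weeks, from 337 and 345 to 116 and 117 (-1.55 ± 0.07, adjusted p = 5.2e-08). Its change in GS cells against sorted cells did not pass (-0.04 ± 0.07, adjusted p = 0.69). Rdh11, another retinal reductase, read 972 and 975 on the 0 week arrays, 205 and 203 at 1 week, 88.3 and 86.6 at 2 weeks, 79.3 and 83.9 at 3 weeks and 108 and 109 in GS cells. It fell at 1 week (-2.26 ± 0.06, adjusted p = 7.4e-10) and was 8.98-fold lower in GS cells than in sorted cells (-3.17 ± 0.06, adjusted p = 1.3e-10). Adh1, an alcohol dehydrogenase that removes excess retinol, went from 468 and 469.5 in sorted cells to 85.2 and 81.7 in GS cells (-2.49 ± 0.08, adjusted p = 3.0e-09) and fell at each of the 4 steps, with a change of -0.39 ± 0.08 at 3 weeks that did not pass without 2 week replicate 2 (adjusted p = 0.068, in a range of 0.00208 to 0.068). In GS cells against 3 weeks Adh4 (-0.57 ± 0.10) and Rdh1 (-0.52 ± 0.11) fell, at dim signals for Adh4 (91.5 and 81.5 to 62.0 and 54.6). Adh4 had risen at 3 weeks (0.36 ± 0.10, adjusted p = 0.024), a call that ended without either 2 week array or without 3 week replicate 1 (adjusted p = 0.151, 0.0915 and 0.16, in a range of 0.0109 to 0.16).

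All 3 RXR genes, which encode the partners of the receptors, rose in GS cells over 3 weeks and over sorted cells and fell at 3 weeks. Rxra and Rxrb are given beside Rxrg, which had the largest changes in GS cells, after their values were seen. In GS cells against 3 weeks the changes were 1.04 ± 0.10, adjusted p = 2.8e-05 for Rxrg, 0.48 ± 0.07, adjusted p = 0.00048 for Rxra and 0.35 ± 0.07, adjusted p = 0.0025 for Rxrb. Against sorted cells Rxrg went from 70.7 and 62.5 to 157 and 175 (1.32 ± 0.10, adjusted p = 1.4e-06), and the changes of Rxra and Rxrb were 0.56 ± 0.07, adjusted p = 8.2e-05 and 0.38 ± 0.07, adjusted p = 0.00099. With cyclic loess the rises of Rxra (adjusted p = 0.0764 and 0.0741) and Rxrb (0.121 and 0.191) did not pass, with values of 0.18 and 0.17 for Rxra and 0.14 and 0.11 for Rxrb. The lowest adjusted p over the alternatives was 0.000152 and 2.34e-05 for Rxra and 0.00183 and 0.000765 for Rxrb. The highest adjusted p was that with cyclic loess in each case.

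At 3 weeks the falls were -0.34 ± 0.07, adjusted p = 0.0086 for Rxra, -0.25 ± 0.07, adjusted p = 0.027 for Rxrb and -0.43 ± 0.10, adjusted p = 0.012 for Rxrg. The Rxra call ended with quantile scaling (-0.20, adjusted p = 0.117), with cyclic loess (-0.14, adjusted p = 0.225) and without 2 week replicate 1 (-0.30, adjusted p = 0.09), in a range of 0.00317 to 0.225. The Rxrb call ended with both scalings (-0.19, adjusted p = 0.0713, and -0.13, adjusted p = 0.245) and without 2 week replicate 1 or 2 or 3 week replicate 2, in a range of 0.0197 to 0.245. The Rxrg call ended on leaving out the same arrays, in a range of 0.00188 to 0.0757.

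**Figure D4:**
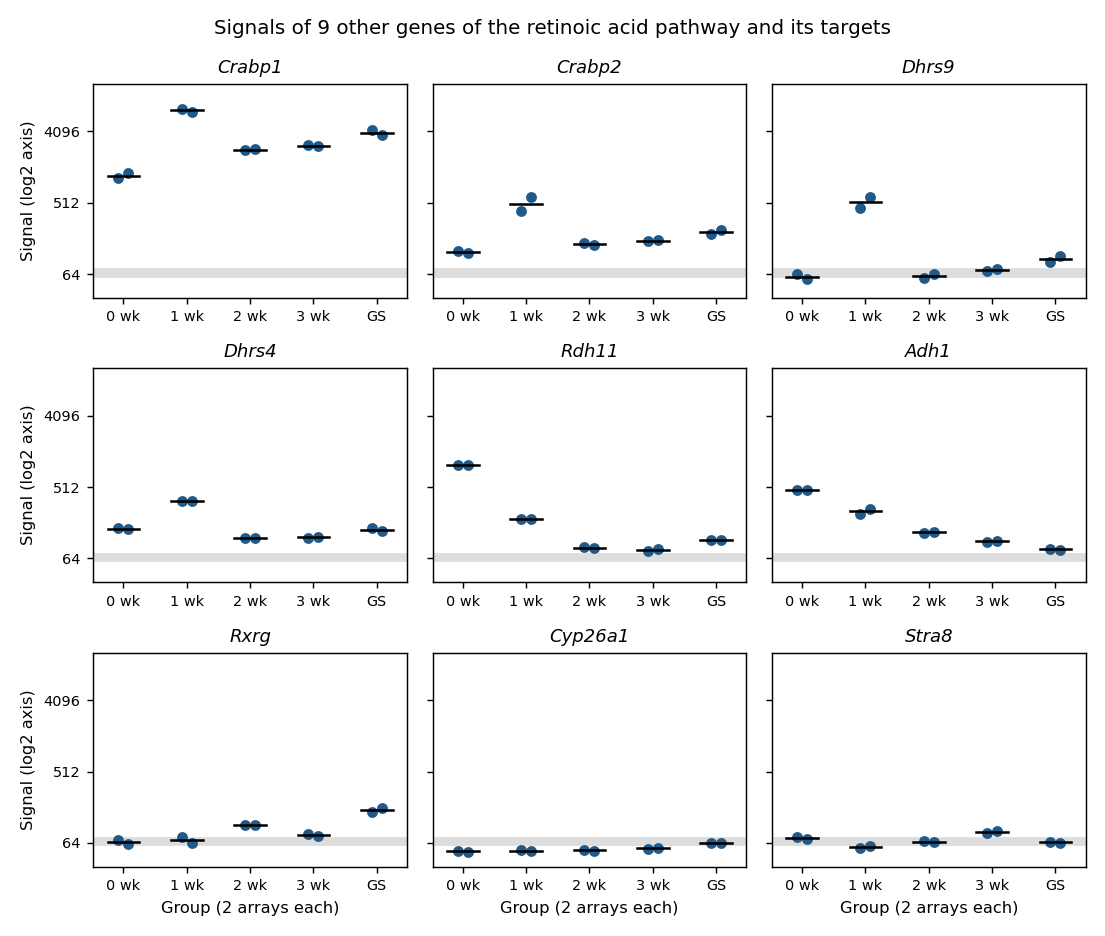
Signals of 9 other genes of the pathway and its targets on each of the 10 arrays (log2 axis), drawn as for the first 9, with the grey band from 59.5 to 73.7 for the lower quartile of all clusters. Crabp1, Crabp2, Dhrs9 and Dhrs4 are highest at 1 week, Rdh11 and Adh1 at 0 weeks, and Cyp26a1 and Stra8 stay near the band.

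Genes known to respond to retinoic acid in germ cells or in other tissues were called about as often as genes at large. Of 18 such genes, 14 differed among the groups, where 74.7% of all genes did. In the first week 4 rose, 6 fell and 8 did not pass (median -0.20), against 57.8% of all genes called, and in the second 5 rose, 5 fell and 8 did not pass (median 0.04), against 50.9%. At 3 weeks 2 rose, 2 fell and 14 did not pass (24.2% of all genes called). The rises there were 1 without 2 week replicate 1 or 3 week replicate 1 and 4 without either GS array, and the falls were 1 without any single 2 or 3 week array. In GS cells against 3 weeks 4 rose, 5 fell and 9 did not pass (47.1% called), with 3 falls without either 3 week array or GS replicate 2 and 8 without GS replicate 1. Against sorted cells 6 rose, 5 fell and 7 did not pass (51.2% called), with 3 falls without 0 week replicate 1. The list holds Rarb itself and shares 6 genes with the pathway list.

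Stra8, which retinoic acid induces at the onset of differentiation and meiosis, read 77.1 and 72.3 on the 0 week arrays, 55.8 and 58.0 at 1 week, 67.0 and 65.3 at 2 weeks, 85.6 and 91.2 at 3 weeks and 66.5 and 64.5 in GS cells. Its 3 week arrays lay above the others, and the rise from 2 weeks passed (0.42 ± 0.07, adjusted p = 0.0027), within a narrow range around the lower quartile. Kit, the stem cell factor receptor of differentiating spermatogonia, fell at 1 week (-1.30 ± 0.08, adjusted p = 3.9e-07) and rose at 2 weeks (1.12 ± 0.08, adjusted p = 2.3e-06). Sohlh1 and Sohlh2 encode transcription factors of spermatogonial differentiation. Sohlh2 rose 4.84-fold at 2 weeks (2.27 ± 0.08, adjusted p = 1.7e-08), fell at 3 weeks (-1.09 ± 0.08, adjusted p = 9.8e-05) and rose in GS cells (1.33 ± 0.08, adjusted p = 2.6e-06). Sohlh1 moved the other way in the last 2 steps (0.54 ± 0.11 and -0.83 ± 0.11), and its rise at 3 weeks ended without 2 week replicate 1 (adjusted p = 0.0585) or 3 week replicate 1 (adjusted p = 0.0573), in a range of 0.00215 to 0.0585.

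Meis1, a homeobox gene, rose at 1 week from 79.6 and 74.3 to 225 and 238 (1.59 ± 0.07, adjusted p = 2.0e-08) and fell at 2 weeks (-1.66 ± 0.07, adjusted p = 3.9e-08). Lrat, which stores retinol as ester, fell at 1 week (-0.93 ± 0.10, adjusted p = 2.5e-05) and remained lower in GS cells (-0.92 ± 0.10, adjusted p = 3.2e-05). It read 103 and 118 on the 0 week arrays, 61.3 and 54.6 at 1 week and 63.2 and 53.8 in GS cells. Every cultured array lay below its lower quartile, so the level Lrat fell to is not shown to be above background. Tgm2, a transglutaminase, was lower in GS cells than in sorted cells (-1.44 ± 0.10, adjusted p = 1.2e-06). Nrip1, a corepressor of nuclear receptors, fell at 3 weeks (-0.33 ± 0.08, adjusted p = 0.02), a call that ended with cyclic loess and on leaving out any single 2 or 3 week array, in a range of 0.0103 to 0.12. The homeobox gene Hoxb1 rose in GS cells over 3 weeks (0.47 ± 0.12, adjusted p = 0.012). This call ended with quantile scaling (0.30, adjusted p = 0.0772), with cyclic loess (0.29, adjusted p = 0.0515), without GS replicate 1 (0.28, adjusted p = 0.06) and without 3 week replicate 2 (0.41, adjusted p = 0.0663), in a range of 0.000873 to 0.0772.

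The genes whose course over the 10 arrays was nearest to each of the 9 were found by the root mean square difference of log2 signals, each gene centred on its own mean, for the 6 genes whose group means spanned at least 1 on the log2 scale. Nearest to Aldh1a3 were Tent5a (0.11), Adam12 (0.11), a membrane metalloprotease, and Il1rl2 (0.12), an interleukin receptor. Nearest to Aldh1a1 were Hk1 (0.15), a hexokinase, Dis3l (0.16) and Lrrc27 (0.17). Nearest to Aldh1a2 were Sorbs3 (0.16), Irak3 (0.17) and Sgcb (0.17), a sarcoglycan.

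For Cyp26b1 the nearest were Dnajb14 (0.15), G6pc3 (0.15) and Phlpp1 (0.16). Rara had Mrps33 (0.11), Setd7 (0.11) and Smoc2 (0.12). Rarg had Ttyh2 (0.06), Eif4ebp1 (0.11), a repressor of translation initiation, and Cars (0.11), the cytosolic cysteinyl-tRNA synthetase. Such nearness over 5 groups describes these arrays alone.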

How the data were processed

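RNA of 10 samples was measured on Affymetrix Mouse Gene 1.0 ST arrays, per the file headers. The authors deposited intensities (linear signals) per transcript cluster, and a table of group means with the fold ratio of 3 weeks over 0 weeks. How they were normalized and background-corrected is not given in the sources used here. Means in the deposited table equalled the geometric means of the replicate signals within 8.9e-07 of their value. Of 28856 clusters, 22439 carried 1 gene symbol, 2815 several and 3602 none. Symbols were updated through RefSeq (17440 current, 2024 updated, 736 kept), and the brightest cluster stood for each of 1333 genes with several, leaving 20174 genes. The deposited intensities were taken to log2 after a floor of 1 (0 values lay under it). limma 3.58.1 in R 4.3.3 fitted all 5 groups, with eBayes and Benjamini-Hochberg adjustment over all genes (threshold 0.05). The fit had 5 residual degrees of freedom. No background or detection values were used. The number of arrays limits precision.

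The 9 genes and all gene lists were chosen with earlier results of these data known. Named were the 9 genes, up to 4 genes of the pathway and target lists per comparison with the largest change among those that passed, the 3 genes nearest in pattern to each of the 9 whose group means spanned at least 1, and defining markers. One result that this rule names is not reported here. Cyp26a1 was also described for its promoter match and Stra8, Adh1 and Dhrs4 at other steps, chosen after their values were seen. Alternatives were quantile and cyclic loess scaling, leaving out dim genes, the mean of a gene's clusters, trended robust eBayes, only the groups compared, the replicate number as a block, and leaving out each array. The model was tested on simulated data. Same-numbered arrays deviated together in some pairs of groups and not in those with 2 weeks, so the numbers were not taken to pair the samples.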

Additional observations from a re-analysis of the deposited data

How the results depend on the processing

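The 1 week and 2 week changes of Aldh1a1, Aldh1a3, Cyp26b1, Rara, Rarg and Rdh10 and the 2 week fall of Aldh1a2 kept direction and call in every alternative run. Of 359 values of the 9 genes under other settings, 341 kept direction and call, and 490 of 520 on leaving out 1 array. Reversals occurred only among changes that did not pass. With quantile scaling Rarb at 2 weeks became -0.000459, Cyp26b1 at 3 weeks -0.003764 and Rbp4 in GS cells against 3 weeks -0.05727. With cyclic loess Rdh10 at 3 weeks became 0.03772 and Rbp4 in GS cells against 3 weeks -0.1167. Leaving out 1 array gave ranges at 3 weeks of -0.1554 to 0.1288 for Rdh10, -0.02148 to 0.1111 for Aldh1a2 and -0.034 to 0.2443 for Cyp26b1. In GS cells against 3 weeks they were -0.02083 to 0.263 for Cyp26b1 and -0.06595 to 0.09933 for Rbp4. All genes called at 3 weeks numbered 4875, 2818 with cyclic loess and 1918 to 5842 on leaving out 1 array (1918 without 2 week replicate 1, 2068 without 2 week replicate 2, 2653 without 3 week replicate 1). Leaving out dim genes, which tests fewer genes, gave 7732 in place of 11664 at 1 week, 6245 in place of 9508 in GS cells against 3 weeks and 9287 in place of 15064 among all groups. With the replicate number as a block the calls were 12584 at 1 week, 11374 at 2 weeks, 6695 at 3 weeks, 10931 in GS cells against 3 weeks, 11128 against sorted cells and 16297 among all groups. The block called a rise of Rarb at 3 weeks (0.1855, adjusted p = 0.0492, in a range of 0.0492 to 0.527), changed no other call of the 9 genes in the 5 comparisons, and gave 4 pathway rises at 2 and at 3 weeks (2 and 1 without it) and 5 target rises at 3 weeks (2 without it). Correlations of same-numbered deviations were -0.0668 to -0.0245 for pairs with 2 weeks and 0.31 to 0.584 for the others, a hint from the data and not the design. The causes of these shifts were otherwise not tested. Without a background measure, signals near the lower quartile bound what a fall can show.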
